A study of Mus musculus with 14 samples.

Results

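Shore tiles are stretches of 1000 bp close to a tile rich in measured CpG positions. The classes count measured positions and not the CpGs of the sequence, so a shore tile can itself hold CpG-dense DNA. A shore tile here was an autosomal tile with 3 to 10 cytosine positions measured in all 10 methylation libraries, placed 1 or 2 tiles away from a dense tile with 20 or more such positions. There were 6625 shore tiles among 108523 autosomal tiles with at least 3 shared positions. Of these, 4783 lay next to the dense tile, 1842 lay 1 tile further out, and 172 had a dense tile on both sides. They were set beside the 14409 dense tiles and beside 77073 remote tiles, which also held 3 to 10 positions but lay 3 or more tiles from any dense tile. The level of a tile was the percent of its reads that were methylated, and differences between levels are given in percentage points.

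CpG dinucleotides are sparse in most of the mouse genome and are usually methylated there, whereas CpG-dense stretches, many of them at gene starts, are usually free of methylation. The shore is the zone between both states, and methylation in shores is known to vary between cell types and to change when somatic cells are reprogrammed to pluripotency. Maintenance methylation copies the mark at each cell division, de novo methyltransferases add it, and oxidation by Tet enzymes followed by base excision repair, or dilution through division, removes it. AID, activation-induced deaminase, converts cytosine to uracil and diversifies antibody genes in B cells.

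All cells came from mouse tail fibroblast cultures, either AID-null or wildtype. For each genotype there was 1 methylation library of untreated fibroblasts, and 1 of cells that had expressed Oct4, Sox2, Klf4 and cMyc for 3 weeks. There were also 3 methylation libraries per genotype of clones, each picked at 2 weeks and measured after 3 weeks with the same factors. RNA was sequenced in 4 libraries, 1 for each genotype of fibroblasts and of 3-week cells. The 3-week libraries are of whole cultures, so a level there mixes reprogrammed cells with others, and fewer cells of a type cannot be told apart from a partial change in each cell. How the AID-null allele was made, which age and strain the animals had, and whether clones of a genotype came from separate animals or cultures is not stated in the sources used here. Tests among clones therefore measure the spread between these clones, which may be technical.

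Shore tiles held 5316135 to 7140451 reads per library in all, and the median shore tile had 664 to 871 reads. AID-null clone 3 stood apart from the other AID-null clones, with a higher mean level in dense, shore and remote tiles, so counts on the clones are also given without it. The AID-null libraries listed 506 to 648 positions on Y and had 1.27% to 1.49% of their coverage on X, against 27 to 48 positions and 2.05% to 2.40% in the wildtype libraries. Genotype and this difference in sex chromosomes cannot be told apart in any comparison of AID-null with wildtype. All 10 fibroblast markers were present in both fibroblast RNA libraries, where they summed to 96877 FPKM in AID-null and 89764 FPKM in wildtype. At 3 weeks their summed level was 24278 FPKM in AID-null and 6155 FPKM in wildtype cells. The 9 pluripotency markers summed to 26.3 FPKM in AID-null and 14.5 FPKM in wildtype fibroblasts. At 3 weeks they summed to 8560 FPKM in AID-null and 9785 FPKM in wildtype cells, and all 9 reached 1 FPKM in both. The 7 macrophage markers summed to 1065 FPKM in AID-null and 326 FPKM in wildtype fibroblasts, and to 325 and 117 FPKM in AID-null and wildtype cells at 3 weeks, where 4 of the 7 were listed at 0 in wildtype. The part of these markers in the methylation levels was not tested.

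Shore tiles were tied to genes through promoter sequence. RefSeq promoters of the build GRCm38.p6, each 300 bases from 250 before to 50 after a gene start, were laid along the mm9 positions in the files wherever the spacing of at least 8 measured CpGs matched the sequence at 1 place on the chromosome. This tied 10446 promoters of 9219 genes, and 3329 shore tiles (50.2%) then held a gene start or flanked a dense tile that did. Exon, intron and UTR positions in mm9 were not analysed here. The 4 promoters printed 5′ to 3′ below belong to genes whose shores are described in the following paragraphs, and they show the CpG content of their starts. The starts of Fgf4, Hells and Spint2 lie in a dense tile beside the shore, and that of Tet1 lies in the shore tile itself. Capitals mark the CpGs that were listed in at least 1 methylation library. They are Fgf4 (chr7:144861136-144861435, plus strand, 24 of 28 CpGs), Hells (chr19:38930740-38931039, plus strand, 25 of 34 CpGs), Spint2 (chr7:29281928-29282227, minus strand, 23 of 26 CpGs) and Tet1 (chr10:62887275-62887574, minus strand, 13 of 17 CpGs).
Fgf4: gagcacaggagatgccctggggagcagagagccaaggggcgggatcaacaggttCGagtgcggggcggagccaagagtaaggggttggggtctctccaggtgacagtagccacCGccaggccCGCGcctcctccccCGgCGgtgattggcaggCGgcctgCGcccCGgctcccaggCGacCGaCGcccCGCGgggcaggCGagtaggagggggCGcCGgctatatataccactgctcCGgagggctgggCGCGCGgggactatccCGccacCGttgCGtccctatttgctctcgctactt
Hells: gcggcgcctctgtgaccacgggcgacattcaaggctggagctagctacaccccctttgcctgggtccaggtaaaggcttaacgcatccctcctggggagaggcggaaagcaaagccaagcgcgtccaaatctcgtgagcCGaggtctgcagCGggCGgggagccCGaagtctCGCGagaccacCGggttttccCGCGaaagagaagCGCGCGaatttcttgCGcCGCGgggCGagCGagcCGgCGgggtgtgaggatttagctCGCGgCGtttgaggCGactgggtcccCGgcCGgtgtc
Spint2: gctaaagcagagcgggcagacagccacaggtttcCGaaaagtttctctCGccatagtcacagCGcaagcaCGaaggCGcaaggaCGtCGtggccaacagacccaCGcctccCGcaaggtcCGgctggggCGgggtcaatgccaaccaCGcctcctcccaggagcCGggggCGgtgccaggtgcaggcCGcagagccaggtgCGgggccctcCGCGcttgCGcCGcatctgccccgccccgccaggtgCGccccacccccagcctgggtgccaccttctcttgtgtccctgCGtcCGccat
Tet1: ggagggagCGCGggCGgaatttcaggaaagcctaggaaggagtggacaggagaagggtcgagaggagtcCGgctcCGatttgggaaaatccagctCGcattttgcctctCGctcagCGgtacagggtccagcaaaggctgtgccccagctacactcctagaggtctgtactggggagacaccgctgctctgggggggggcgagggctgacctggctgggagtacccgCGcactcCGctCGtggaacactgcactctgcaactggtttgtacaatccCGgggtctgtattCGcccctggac

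Mean methylation in shores stood between that of dense and remote tiles in every library, and this mean was lower in reprogrammed cells than in fibroblasts of both genotypes. The mean shore level was 32.0% in AID-null and 32.7% in wildtype fibroblasts. At 3 weeks it was 26.1% in AID-null and 22.1% in wildtype cells. The clones had means of 21.7%, 18.8% and 28.2% for AID-null (mean 22.9% ± 4.81, SD, n = 3), against 23.8%, 24.96% and 25.3% for wildtype (24.7% ± 0.793, SD, n = 3). The ranges of the clones overlapped, because AID-null clone 3 lay above the wildtype clones and the other AID-null clones lay below them. Dense tiles averaged 5.79% and 5.79% in AID-null and wildtype fibroblasts, and remote tiles 68.4% and 69.3%. Medians did not follow the means throughout. The median shore was at 13.6% in AID-null and 13.9% in wildtype fibroblasts, and at 14.8% and 13.6% at 3 weeks. In the clones it was at 6.78%, 5.33% and 14.5% for AID-null, against 12.9%, 13.9% and 14.5% for wildtype.

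Set against the remote tiles of the same library, shores of the AID-null clones were the least methylated. Mean shore level as a percent of mean remote level was 36.1%, 34.2% and 41.1% in the AID-null clones, against 42.7%, 43.2% and 43.4% in the wildtype clones. These ranges did not overlap, and AID-null clone 3 was the closest to wildtype. The same quantity was 46.7% in AID-null and 47.2% in wildtype fibroblasts, and 43.4% in AID-null and 43.0% in wildtype cells at 3 weeks, with a gap between genotypes of under 1 point in each case. Dense tiles averaged 2.93%, 2.54% and 4.09% in the AID-null clones, against 3.62%, 3.89% and 4.00% in the wildtype clones. Remote tiles averaged 60.1%, 54.9% and 68.5% in the AID-null clones, against 55.7%, 57.7% and 58.3% in the wildtype clones. No p is given for these averages.

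**Figure D1:**
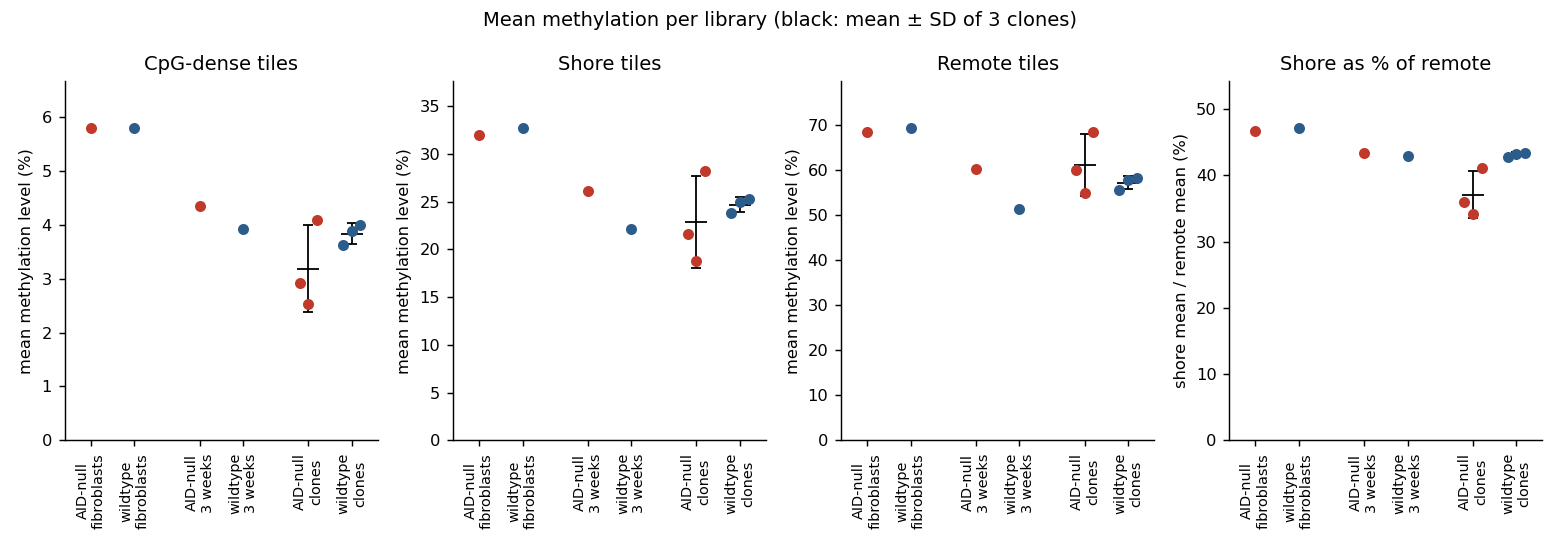
Mean methylation level (%) of dense, shore and remote tiles, and shore as a percent of remote, per library, with AID-null in red and wildtype in blue. Points are libraries, and black marks are the mean ± SD of 3 clones. The 3 AID-null clones sit at 34.2% to 41.1% in the last panel, below the wildtype clones at 42.7% to 43.4%.

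The average hides a split among shore tiles. In fibroblasts, 47.0% of shore tiles in AID-null and 47.1% in wildtype were below 10% methylated, while 17.1% and 18.4% were at 80% or more. At 3 weeks the highly methylated shores had shrunk to 2.64% in AID-null and 0.121% in wildtype cells. In the clones, 4.11%, 2.07% and 8.50% of shores were at 80% or more for AID-null, against 1.22%, 2.46% and 1.74% for wildtype. Shores below 10% made up 54.4%, 57.5% and 45.5% in the AID-null clones, against 47.1%, 45.8% and 45.2% in the wildtype clones. AID-null clones 1 and 2 thus had more nearly unmethylated shores than any wildtype clone, and AID-null clone 3 did not.

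Methylation climbed steeply away from the dense tile. Within 200 bp of its edge, positions averaged 10.5% in AID-null and 10.8% in wildtype fibroblasts, and between 1801 and 2000 bp they averaged 57.8% and 59.1%. The share kept at 3 weeks was much the same at every distance. Across the 10 bins of 200 bp, AID-null cells kept 79.0% to 82.6% of the fibroblast level, and wildtype cells kept 64.5% to 69.1%. The clones differed from this in shape. The AID-null clones kept 64.4% of the fibroblast level within 200 bp and 75.8% between 1801 and 2000 bp, while the wildtype clones kept 75.7% and 73.3% at the same distances.

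The mean of the AID-null clones was below that of the wildtype clones in the bins up to 1600 bp from the dense tile and above it in the bins further out. Within 200 bp the AID-null clones were at 6.30%, 5.46% and 8.58%, against 7.78%, 8.40% and 8.44% in the wildtype clones. Between 1801 and 2000 bp they were at 42.6%, 38.2% and 50.6%, against 41.8%, 44.0% and 44.0%. The groups overlapped at both distances, with AID-null clone 3 above every wildtype clone each time. Tiles next to the dense tile averaged 22.4% in AID-null and 23.0% in wildtype fibroblasts, and tiles 2 away 56.9% and 58.0%. Just outside the limits of the definition, tiles 3 away averaged 62.8% and 63.7%. Shore tiles with 10 positions averaged 19.03% and 19.5%, and tiles with 11 positions at the same distances, which are not counted as shores, 17.3% and 17.5%.

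**Figure D2:**
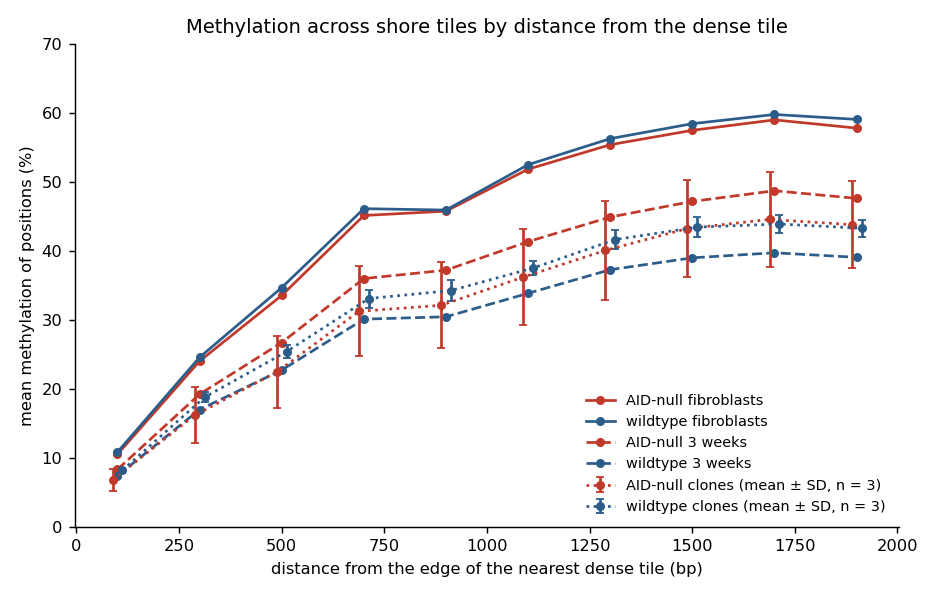
Mean methylation (%) of positions in shore tiles in bins of 200 bp from the edge of the nearest dense tile, for 6 groups. Solid lines are fibroblasts, dashed lines 3 weeks and dotted lines clones with the SD of 3. All lines are lowest in the first bin and highest between 1601 and 2000 bp, and wildtype cells at 3 weeks are the lowest line from 601 bp on.

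The first comparison asks what 3 weeks of reprogramming did to shores within each genotype. Loss was the main direction in both, and it reached more shores in wildtype. In AID-null cells 742 shore tiles (11.2%) were called lower than in AID-null fibroblasts and 79 higher, where 10.4% and 2.34% of all tiles were so called. In wildtype cells 1626 (24.5%) were called lower and 70 higher, against 31.4% and 2.25% of all tiles. The AID-null share of shores called lower was thus close to that of all tiles, and the wildtype share was below it. A call needed Fisher's exact test with a Benjamini-Hochberg adjusted p under 0.05 over all 108523 tiles and a difference of at least 25 points. With 1 library per group the test compares libraries and not conditions. In a model of all 10 libraries that borrows the spread between clones, 197 AID-null and 836 wildtype shores were called lower, and 7 and 27 higher. Of the shores called lower by Fisher's test, 681 were called in both genotypes, which is 91.8% of the AID-null and 41.9% of the wildtype calls. The overlap over all tiles was not counted, and such a fall is open only to shores that start at 25% or more. The part of the starting level in this overlap was not tested.

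The shore of Hells was among the 4 with the largest fall in both genotypes. Hells encodes a SNF2-family helicase needed for normal DNA methylation at repeats. Its shore tile, chr19:39003001-39004000 in mm9, lies upstream, 2 tiles from the dense tile of the start whose promoter is printed above. It was at 86.0% in AID-null and 100% in wildtype fibroblasts, and at 30.1% in AID-null and 23.3% in wildtype cells at 3 weeks. It was at 6.45%, 12.3% and 22.3% in the AID-null clones, against 5.47%, 3.57% and 3.68% in the wildtype clones. Both genotypes were therefore far lower at 3 weeks and in the clones than in fibroblasts, while the dense tile next to it was at 0.153% and 0.148% in AID-null and wildtype fibroblasts. Its difference from fibroblasts at 3 weeks was -55.9 points in AID-null and -76.7 points in wildtype (Fisher's exact test, adjusted p = 5.31e-56 and 7.56e-152). Hells RNA stood at 33.2 FPKM in AID-null and 26 FPKM in wildtype fibroblasts, and at 351 FPKM in AID-null and 483 FPKM in wildtype cells at 3 weeks.

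The other 3 shores with the largest falls had no tied gene, at chr2:168752001-168753000, chr4:148097001-148098000 and chr15:75804001-75805000. The last was at 95.9% in AID-null and 93.8% in wildtype fibroblasts, and at 30.5% in AID-null and 30.1% in wildtype cells at 3 weeks. It was at 6.78%, 6.55% and 25.02% in the AID-null clones, against 25.4%, 10.6% and 21.0% in the wildtype clones. These were chosen for their fall, so the values describe them. Unlike at Hells, the dense tiles beside the first and the last were themselves methylated in fibroblasts, at 85.7% and 92.3% in AID-null and 84.8% and 91.7% in wildtype.

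A small set of shores gained methylation. Among the 4 with the largest gain in both genotypes were the shore downstream of the start of Ehbp1l1 and the shore upstream of the predicted gene Gm16551. The Ehbp1l1 shore, chr19:5725001-5726000, was at 1.00% in AID-null and 1.61% in wildtype fibroblasts, and at 37.2% in AID-null and 36.9% in wildtype cells at 3 weeks. It was at 43.1%, 20.1% and 47.8% in the AID-null clones, against 48.3%, 53.6% and 55.2% in the wildtype clones. It was nearly unmethylated in both fibroblast libraries and partly methylated in each reprogrammed library, with AID-null clone 2 the lowest of the clones. Ehbp1l1 RNA stood at 112 FPKM in AID-null and 119.9 FPKM in wildtype fibroblasts, and at 47.9 FPKM in AID-null and 52.5 FPKM in wildtype cells at 3 weeks. The Gm16551 shore, chr9:74695001-74696000, was at 2.93% in AID-null and 3.41% in wildtype fibroblasts, and at 32.6% in AID-null and 40.9% in wildtype cells at 3 weeks. The remaining pair, chr11:98633001-98634000 and chr19:45300001-45301000, had no tied gene. The first of them was at 59.1% and 60.3% at 3 weeks in AID-null and wildtype, against 18.2% and 15.2% in fibroblasts, and the second at 38.6% and 33.7%, against 4.06% and 5.61%. The dense tiles beside these 4 shores were below 4% in both fibroblast libraries.

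The next comparison sets AID-null against wildtype at 3 weeks, which addresses the question in the series title, whether AID takes part in removing the methylation of the starting cells. Shores were more methylated in the AID-null culture. Fisher's test called 96 shore tiles higher in AID-null and 0 lower, where 2.26% and 0.0553% of all tiles were so called. The mean difference was 4.05 points over shores and 8.87 points over remote tiles. The model of all 10 libraries called 0 shores higher. The change from fibroblasts differed between the genotypes by 4.80 points on average, and no shore or other tile passed the test of that difference in the 10-library quasi-binomial model, where 273 shores (4.12%) had an unadjusted p under 0.05. Fibroblast and macrophage markers were also higher in sum, and pluripotency markers lower in sum, in the AID-null RNA library at 3 weeks, as given above. The part of these markers in this difference was not tested.

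The shore with the largest excess in AID-null at 3 weeks lay downstream of the start of Cldn11, which encodes a claudin of tight junctions. This tile, chr3:31049001-31050000, was at 92.5% in AID-null and 85.3% in wildtype fibroblasts, and at 80.6% in AID-null and 39.2% in wildtype cells at 3 weeks. It was at 79.6%, 66.3% and 85.9% in the AID-null clones, against 73.0%, 79.5% and 72.1% in the wildtype clones. The gap at 3 weeks was not seen in the clones, whose ranges overlapped. Cldn11 RNA was at or below 0.860 FPKM in all 4 libraries. The next 3, chr1:75548001-75549000, chr15:75919001-75920000 and chr7:89919001-89920000, had no tied gene and stood at 82.1%, 87.0% and 68.0% in AID-null cells at 3 weeks, against 41.4%, 52.9% and 35.1% in wildtype. The wildtype 3-week levels rest on 153 reads at the Cldn11 tile and on 198, 656 and 1454 reads at these 3. At chr7:89919001-89920000 the other libraries had 13100 to 50219 reads. Its dense neighbour was at 59.1% in AID-null and 60.3% in wildtype at 3 weeks. The 4 shores with the lowest AID-null minus wildtype difference included the shore downstream of the start of Gstm5, a glutathione S-transferase gene. That tile, chr3:107699001-107700000, was at 1.87% in AID-null and 5.87% in wildtype fibroblasts, and at 10.2% in AID-null and 27.2% in wildtype cells at 3 weeks. It was at 11.2%, 8.40% and 20.4% in the AID-null clones, against 29.5%, 27.2% and 41.8% in the wildtype clones. Here the wildtype library was the higher of the pair in fibroblasts and at 3 weeks, and all wildtype clones lay above all AID-null clones. Gstm5 RNA stood at 239 FPKM in AID-null and 239.8 FPKM in wildtype fibroblasts, and at 161 FPKM in AID-null and 84.5 FPKM in wildtype cells at 3 weeks. The other 3, chr7:56813001-56814000, chr17:31993001-31994000 and chr7:36368001-36369000, stood at 38.1%, 13.2% and 29.3% in AID-null at 3 weeks, against 58.5%, 30.6% and 46.0% in wildtype.

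The clones were then set against the fibroblasts of their own genotype. In AID-null clones 1088 shores (16.4%) fell and 191 rose, against 13.8% and 5.24% of all tiles. In wildtype clones 1163 (17.6%) fell and 256 rose, against 18.9% and 4.5% of all tiles. Without AID-null clone 3, 1397 shores fell and 142 rose in AID-null clones. These calls come from the quasi-binomial model of all 10 libraries at an adjusted p under 0.05 and 25 points, in which the single fibroblast library is assumed to vary like the clones. On simulated data, a larger share of calls was false with this model than with the model of the clones alone. Its counts and adjusted p-values, here and at single genes below, carry that limit. The calls also share the fibroblast libraries with the comparison at 3 weeks. Of the falls, 867 were shared, 79.7% of the AID-null and 74.5% of the wildtype falls. Of the rises, 140 were shared, 73.3% of the AID-null and 54.7% of the wildtype rises. Overlaps over all tiles were not counted. Both genotypes were tested with the same dispersion per tile, so their calls are not independent.

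A fall of 25 points is open only to tiles that start high, and many shores start low, so the calls were also counted by fibroblast level. Of the 2764 shores at 25% or more in both fibroblast libraries, 38.9% fell in AID-null clones and 41.3% in wildtype clones, against 19.7% and 26.9% of all tiles at that level. At 3 weeks 26.7% of them were called lower in AID-null and 58.0% in wildtype, against 14.9% and 44.8%. Of the 3614 shores below 25% in both, 3.43% rose in AID-null and 5.84% in wildtype clones, against 8.21% and 9.4%. At 3 weeks 1.41% and 1.49% of them were called higher, against 4.55% and 5.54%. In these counts methylated shores were called lower more often than tiles in general, and unmethylated shores were called higher less often. Dense tiles went further the same way. Of dense tiles at 25% or more, 67.3% fell in AID-null and 66.4% in wildtype clones, and 45.1% and 68.5% were called lower at 3 weeks. Of those below 25%, 0.119% rose in AID-null and 0.186% in wildtype clones. These bins use the same fibroblast libraries as the differences, so a chance high or low value there enters both.

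Without regard to starting level, AID-null clones differed from fibroblasts by a mean of -9.10 points in shores and -7.22 points in remote tiles. Wildtype clones differed by -8.03 and -12.1 points, the opposite order. At like fibroblast level, clones of both genotypes were lower in shores than in remote tiles. In the 1400 shores at 75% or more (mean of both fibroblast libraries), AID-null clones averaged 53.8%, 47.2% and 64.1%, and wildtype clones 52.9%, 55.5% and 55.6%. In the 43924 remote tiles of that level, AID-null clones averaged 70.3%, 64.4% and 78.0%, and wildtype clones 63.7%, 66.1% and 66.6%. Each of the 6 clones was thus lower in shores than in remote tiles of like starting level. In the bin of 10% to 25%, shores averaged 18.1% in AID-null and 22.7% in wildtype clones, against 16.5% and 17.0% in fibroblasts. Remote tiles of that bin averaged 41.6% and 41.0% in clones, against 17.7% and 17.0% in fibroblasts, so their mean was further above fibroblasts than that of shores.

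**Figure D3:**
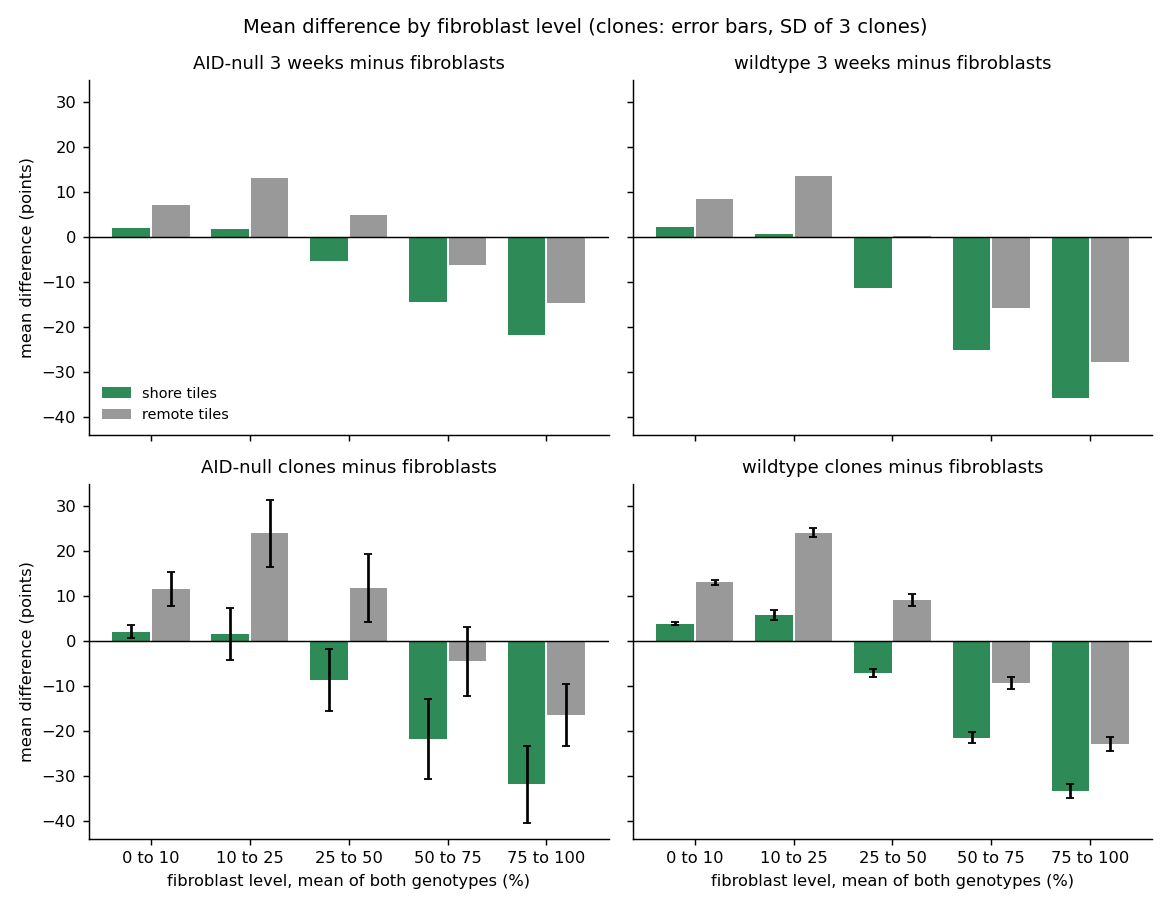
Mean difference from fibroblasts (points) at 3 weeks (top) and in clones (bottom), AID-null left and wildtype right, for shore tiles (green) and remote tiles (grey) by fibroblast level. Error bars are the SD of 3 clones, and the 3-week bars rest on 1 library. In the highest bin the bar of shores is longer than that of remote tiles in all 4 panels, for example -31.8 and -16.4 points in AID-null clones.

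AID-null clones were compared directly with wildtype clones, the only groups with replicates. No shore tile was called in either direction by the quasi-binomial model of the 6 clones, where 0.000921% and 0% of all tiles were called lower and higher. An unadjusted p under 0.05 was reached by 1082 shores (16.3%), and limma on log2 ratios also called 0. The mean difference over shores was -1.82 points and depended on single clones. Without AID-null clone 3 it was -4.47 points, with 98 shores called lower and 6 higher, and without AID-null clone 2 it was 0.226 points. All 3 AID-null clones lay below all 3 wildtype clones in 722 shores (10.9%, against 6.12% of all tiles). They lay above in 306 (4.62%, against 15%). Among dense tiles 17.4% lay below and 2.85% above, and among remote tiles 2.92% and 18.99%, so shores stood between both classes.

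The 8 shores whose clones did not overlap and whose clone means differed most were named without regard to the test, and none passed it. Above wildtype was the shore upstream of Axin2, which encodes an inhibitor and target of Wnt signalling. This tile, chr11:108779001-108780000, was at 60.5%, 46.1% and 60.8% in the AID-null clones, against 25.9%, 21.2% and 20.6% in the wildtype clones (difference 33.2 points, adjusted p = 0.224). In the bulk libraries it was at 24.2% in AID-null and 17.9% in wildtype fibroblasts, and at 33.9% in AID-null and 25.8% in wildtype cells at 3 weeks. The AID-null clones were far above their fibroblasts there, and the wildtype clones were near theirs. Axin2 RNA lay between 8.22 and 11.1 FPKM in all 4 libraries. The shore downstream of the start of Rnf187, a ubiquitin ligase gene, chr11:58750001-58751000, was at 55.7%, 60.1% and 82.2% in the AID-null clones, against 25.04%, 50.6% and 42.2% in the wildtype clones. It was at 84.6% and 89.97% in AID-null and wildtype fibroblasts. The further shores above wildtype, chr15:96527001-96528000 and chr19:10260001-10261000, had no tied gene, with AID-null clone means of 31.4% and 93.3% against 3.88% and 65.9% in wildtype clones.

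Below wildtype was the shore upstream of Tmem163, which encodes a zinc transporter. This tile, chr1:129575001-129576000, was at 19.05%, 13.8% and 49.0% in the AID-null clones, against 56.0%, 49.9% and 64.4% in the wildtype clones. In the bulk libraries it was at 23.2% in AID-null and 21.1% in wildtype fibroblasts, and at 36.0% in AID-null and 32.8% in wildtype cells at 3 weeks. The wildtype clones were far above their fibroblasts, and AID-null clones 1 and 2 were below theirs. The remaining 3, chr7:148249001-148250000, chr1:78199001-78200000 and chr5:115958001-115959000, had no tied gene. The first was at 94.5% in AID-null and 96.1% in wildtype fibroblasts, and at 47.8% in AID-null and 40.9% in wildtype cells at 3 weeks. It was at 3.08%, 2.19% and 21.8% in the AID-null clones, against 50.9%, 64.0% and 27.9% in the wildtype clones. AID-null clones 1 and 2 were thus below 4%, at a tile that was above 90% in both fibroblast libraries. The other tiles had AID-null clone means of 36.1% and 24.0%, against 67.6% and 54.3% in wildtype clones, from at most 5.05% in fibroblasts.

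Few shores separated the clones from the 3-week culture of the same genotype. In AID-null, 19 shores fell in the clones relative to the culture and 1 rose, against 0.263% and 0.103% of all tiles, and leaving out AID-null clone 1, 2 or 3 gave 11, 6 or 269 falls and 0, 2 or 5 rises. In wildtype, 0 fell and 0 rose in the quasi-binomial model, against 0.00829% and 0%, with 514 shores at an unadjusted p under 0.05, and 1 fell without wildtype clone 3 and 1 rose without AID-null clone 3. The mean shore difference was -3.28 points in AID-null and 2.60 points in wildtype, so that AID-null clones were on average below their bulk culture and wildtype clones above theirs. In untreated fibroblasts, 41 shores were called lower and 24 higher in AID-null than in wildtype by Fisher's test, against 0.594% and 0.366% of all tiles, and the 10-library model called 0 in either direction.

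Shore tiles that held a tied gene start had a low mean level, and tiles upstream and downstream of a start were close to each other. The 231 shore tiles that held a start averaged 3.96% in AID-null and 3.90% in wildtype fibroblasts. A start was tied only where at least 8 measured CpGs matched its promoter, so these tiles were selected for CpG-rich starts. Dense tiles were also low, at 5.79% in both fibroblast libraries. The part of this selection in the low levels at tied starts was not tested. Tiles upstream of a start in the dense tile averaged 29.1% and 29.9%, and tiles downstream 28.6% and 29.3%. At 3 weeks the upstream tiles averaged 22.5% and 19.3% in AID-null and wildtype, and the downstream tiles 23.6% and 19.6%. In the clones the upstream tiles averaged 19.7% ± 4.71 for AID-null and 21.9% ± 0.686 for wildtype, and the downstream tiles 20.3% ± 4.76 and 22.0% ± 0.732 (SD, n = 3 each). The profile had a similar shape on both sides. Positions in shores at 250 to 500 bp before a start were at 4.25% and 4.71% in AID-null and wildtype fibroblasts, and those at 1750 to 2000 bp before it at 49.0% and 49.7%. Positions at 250 to 500 bp after a start were at 2.73% and 2.54% in AID-null and wildtype fibroblasts, and those at 1750 to 2000 bp after it at 54.6% and 54.4%.

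**Figure D4:**
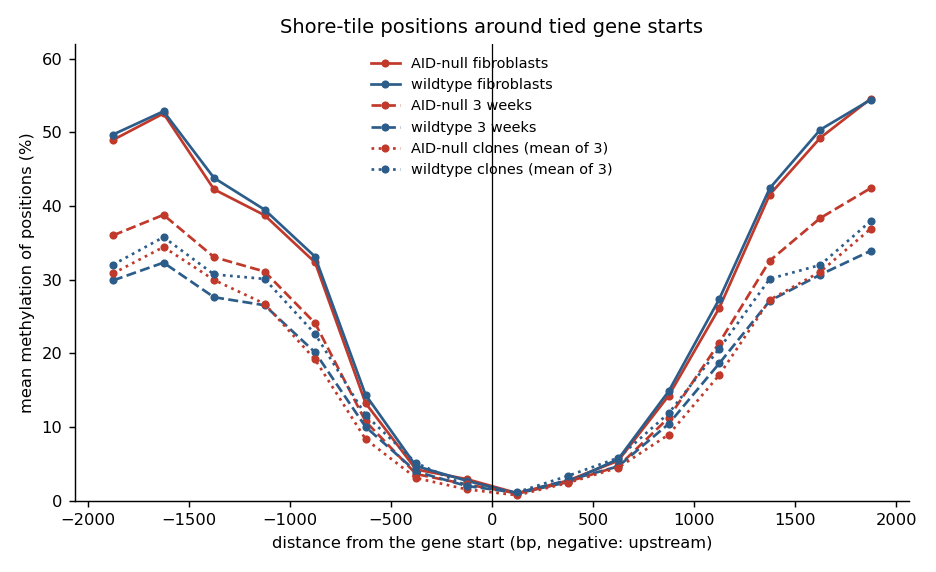
Mean methylation (%) of shore-tile positions in bins of 250 bp around tied gene starts, AID-null in red and wildtype in blue, with fibroblasts solid, 3 weeks dashed and clones dotted. All 6 lines are lowest just after the start, at 0.751% to 1.17%, and climb on both sides.

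Shores were then grouped by the RNA of the tied gene at 3 weeks against fibroblasts of the same genotype, for the 2805 genes with an RNA value. RNA was compared as log2(FPKM + 1) for genes that reached 1 FPKM in 1 of the pair, a scale on which low genes differ less. There is 1 RNA library per group and so no test. Shores of genes with at least 2-fold higher RNA had a higher fibroblast mean and a larger share called lower than shores of genes with at least 2-fold lower RNA. In AID-null, the 596 shores of such genes averaged 24.4% at 3 weeks, against 33.1% in fibroblasts, and 88 (14.8%) were called lower. The 514 shores of genes at least 2-fold lower averaged 20.2% at 3 weeks, against 22.7% in fibroblasts, and 30 (5.84%) were called lower. Of shores of genes within 2-fold, 10.9% were called lower.

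The wildtype cultures had the same order. The 744 shores of genes at least 2-fold higher averaged 18.5% at 3 weeks, against 31.2% in fibroblasts, with 187 (25.1%) called lower. The 487 shores of genes at least 2-fold lower averaged 17.5% at 3 weeks, against 22.1% in fibroblasts, with 61 (12.5%) called lower. In the wildtype clones, shores of the first set averaged 19.4% ± 0.541 and those of the second 21.2% ± 0.932 (SD, n = 3), the opposite order to that in fibroblasts. Shores of genes within 2-fold included a share of 21.9% called lower. For the sets made from AID-null RNA, the AID-null clones kept the order of their fibroblasts. They averaged 19.6% ± 4.96 for shores of genes with at least 2-fold higher RNA and 18.3% ± 4.83 for those with at least 2-fold lower RNA (SD, n = 3). The wildtype clones kept it too for these AID-null sets, at 21.5% and 20.8%. For the wildtype RNA sets the AID-null clones also had the opposite order, at 17.9% and 19.2%. The order in the clones thus went with the gene sets and did not differ between the genotypes. Most shores of genes that differed 2-fold or more in RNA were not called. The share called lower among those with higher RNA was near that of all shores in wildtype. Of all shores tied to a gene, 10.1% in AID-null and 21.1% in wildtype were called lower, below the shares for higher RNA in both genotypes. Where the gene was under 1 FPKM in both libraries of the pair, it was 0.5% of 200 shores in AID-null and 17.4% of 207 in wildtype.

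Gene lists gave the shores of known groups, each counted by the same calls, with the share of all tiles called given above. Over all tiles the median difference of clones from fibroblasts was -3.30 points in AID-null and -9.37 points in wildtype. Over all shores it was -0.755 and -0.301 points, and over shores tied to a gene -0.141 and 0 points, in AID-null and wildtype. The pluripotency list had 8 shore tiles of 6 genes, of 41 listed genes of which 11 had a tied promoter, and 1 in AID-null and 2 in wildtype were called lower at 3 weeks, and 2 and 2 fell in AID-null and wildtype clones, with none higher in either comparison. Its median difference in clones was -3.91 and -11.5 points in AID-null and wildtype. Fgf4, a growth factor gene of pluripotent cells, had the largest fall. Its shore chr7:152045001-152046000, upstream of the promoter printed above, was at 91.5% in AID-null and 84.7% in wildtype fibroblasts, and at 31.6% in AID-null and 31.3% in wildtype cells at 3 weeks. It was at 11.5%, 12.2% and 21.1% in the AID-null clones, against 24.997%, 17.7% and 27.3% in the wildtype clones. The clones were -76.6 points from fibroblasts in AID-null and -61.4 points in wildtype (10-library model, adjusted p = 2.67e-07 and 1.55e-05). The genotypes were close at 3 weeks and overlapped in the clones. Fgf4 RNA was listed at 0 in both fibroblast libraries and stood at 268 FPKM in AID-null and 250.2 FPKM in wildtype cells at 3 weeks.

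Sall1, which encodes a zinc finger factor expressed in embryonic stem cells, had the other called shore of the list. This tile, chr8:91564001-91565000, downstream of the start, was at 51.7% in AID-null and 61.3% in wildtype fibroblasts, and at 28.5% in AID-null and 12.9% in wildtype cells at 3 weeks. It was at 0.340%, 0.651% and 0.533% in the AID-null clones, against 0.179%, 0% and 0.878% in the wildtype clones. Every clone was below 1%, while the AID-null culture at 3 weeks kept more than the wildtype culture. Its fall in the clones was called in both genotypes (quasi-binomial model, adjusted p = 2.45e-09 and 4.76e-09), and in AID-null it was also called below the 3-week culture (quasi-binomial model, adjusted p = 3.63e-04). Sall1 RNA stood at 2.17 FPKM in AID-null and 1.91 FPKM in wildtype fibroblasts, and at 31.0 FPKM in AID-null and 142 FPKM in wildtype cells at 3 weeks. Tet1, whose product oxidises methylcytosine, held its start in a shore tile. This tile was at 6.46% in AID-null and 6.91% in wildtype fibroblasts, and at 1.17% in AID-null and 0.470% in wildtype cells at 3 weeks. It started low and could not fall by 25 points, and no clone exceeded 2.58%. The other shores of the list, at Klf2, Klf4, Dnmt3b and upstream of Sall1, were not called.

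The list of DNA methylation and repair genes, which shares Dnmt3b and Tet1 with the pluripotency list, had 7 shore tiles of 5 genes, of 19 listed genes of which 13 had a tied promoter. Of these, 1 in AID-null and 1 in wildtype were called lower at 3 weeks, and 1 and 1 fell in AID-null and wildtype clones, each time the shore of Apex1, which encodes the endonuclease that cuts abasic sites in base excision repair. Its median difference in clones was -3.27 and -6.81 points in AID-null and wildtype. The Apex1 tile, chr14:51546001-51547000, downstream of the start and resting on 3 positions, was at 85.4% in AID-null and 97.9% in wildtype fibroblasts, and at 49.3% in AID-null and 42.9% in wildtype cells at 3 weeks. It was at 17.5%, 25.4% and 9.68% in the AID-null clones, against 10.5%, 14.4% and 18.5% in the wildtype clones. The groups overlapped in the clones. At the upstream shore of Dnmt3b, a de novo methyltransferase gene, the clones of the genotypes lay apart. That tile, chr2:153473001-153474000, was at 52.7% in AID-null and 52.7% in wildtype fibroblasts, and at 50.6% in AID-null and 38.9% in wildtype cells at 3 weeks. It was at 64.7%, 57.2% and 56.0% in the AID-null clones, against 33.6%, 31.7% and 43.9% in the wildtype clones. All AID-null clones were above all wildtype clones and above their fibroblasts, and all wildtype clones were below theirs. The difference between the clones, 22.9 points, did not pass (6-clone model, adjusted p = 0.225). Dnmt3b RNA stood at 4.78 FPKM in AID-null and 3.20 FPKM in wildtype fibroblasts, and at 193 FPKM in AID-null and 389 FPKM in wildtype cells at 3 weeks.

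The epithelial list had 9 shore tiles of 5 genes, of 27 listed genes of which 8 had a tied promoter, and 2 in AID-null and 3 in wildtype were called lower at 3 weeks, and 2 and 2 fell in AID-null and wildtype clones, with a median difference in clones of -9.30 and -10.6 points in AID-null and wildtype. Spint2, which encodes a serine protease inhibitor of epithelia, had the largest fall. Its shore chr7:30065001-30066000, downstream of the promoter printed above, was at 86.1% in AID-null and 88.6% in wildtype fibroblasts, and at 34.7% in AID-null and 29.5% in wildtype cells at 3 weeks. It was at 5.75%, 4.54% and 24.1% in the AID-null clones, against 20.05%, 24.3% and 28.6% in the wildtype clones. AID-null clones 1 and 2 were below all wildtype clones, and AID-null clone 3 was within them. The falls in the clones had adjusted p = 2.83e-06 in AID-null and 1.52e-05 in wildtype. Spint2 RNA stood at 17.3 FPKM in AID-null and 12.4 FPKM in wildtype fibroblasts, and at 472 FPKM in AID-null and 341 FPKM in wildtype cells at 3 weeks. Crb3, a cell polarity gene, and Krt18, a keratin gene of simple epithelia, had 3 shores each. The outermost Crb3 shore, chr17:57203001-57204000, was at 58.1% in AID-null at 3 weeks, against 84.0% in AID-null fibroblasts. The outermost upstream Krt18 shore, chr15:101856001-101857000, was at 16.4% in wildtype at 3 weeks, against 45.8% in wildtype fibroblasts.

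The germline list had 3 shore tiles of 3 genes, of 22 listed genes of which 11 had a tied promoter, and 2 in AID-null and 2 in wildtype were called lower at 3 weeks, and 1 and 2 fell in AID-null and wildtype clones. Its median difference in clones was -24.6 and -30.3 points in AID-null and wildtype. These genes are known to be silenced by promoter methylation in somatic cells. The shore of Dazl, which encodes a germ cell RNA-binding protein, chr17:50433001-50434000, was at 98.0% in AID-null and 96.2% in wildtype fibroblasts, and at 81.1% in AID-null and 82.6% in wildtype cells at 3 weeks. It was at 71.8%, 66.6% and 81.9% in the AID-null clones, against 74.2%, 77.1% and 83.7% in the wildtype clones, so that it stayed above 65% in all libraries. The shore of Mael, which encodes a piRNA pathway protein, chr1:168169001-168170000, was at 94.0% in AID-null and 87.7% in wildtype fibroblasts, and at 57.8% in AID-null and 50.9% in wildtype cells at 3 weeks. It was at 61.9%, 29.1% and 70.1% in the AID-null clones, against 35.1%, 48.7% and 38.8% in the wildtype clones. The AID-null clones spread over 29.1% to 70.1% and included the wildtype range. The shore of Slc25a31, a germ cell ADP/ATP carrier gene, chr3:40513001-40514000, was at 66.5% and 65.4% at 3 weeks in AID-null and wildtype, against 97.7% and 96.0% in fibroblasts. RNA of all 3 genes was listed at 0 in both fibroblast libraries, and at 3 weeks Dazl stood at 64.1 FPKM in AID-null and 14.4 FPKM in wildtype cells.

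The imprinted list had 8 shore tiles of 5 genes, of 34 listed genes of which 10 had a tied promoter. Of these, 2 in AID-null and 1 in wildtype were called lower at 3 weeks, and 4 and 2 fell in AID-null and wildtype clones, with a median difference in clones of -19.1 and -15.5 points in AID-null and wildtype. Imprinted genes carry methylation on a single parental copy at their control regions, and several of these shores were near 40% to 50% in fibroblasts. The Gnas shore chr2:174109001-174110000, which holds a start of this G protein gene locus, was at 47.9% in AID-null and 35.1% in wildtype fibroblasts, and at 17.5% in AID-null and 14.5% in wildtype cells at 3 weeks. It was at 1.78%, 1.37% and 3.55% in the AID-null clones, against 5.08%, 5.66% and 9.05% in the wildtype clones. Every clone was below 10%. The other Gnas shore, chr2:174152001-174153000, was at 15.9%, 8.36% and 22.2% in the AID-null clones, against 37.5%, 41.6% and 28.7% in the wildtype clones, and the AID-null clones lay below all wildtype clones (quasi-binomial model, adjusted p = 0.224). The shore upstream of Phlda2, a maternally expressed growth-restricting gene, chr7:150690001-150691000, was at 87.7% in AID-null and 87.8% in wildtype fibroblasts, and at 53.8% in AID-null and 46.1% in wildtype cells at 3 weeks. It was at 38.8%, 18.7% and 37.8% in the AID-null clones, against 42.5%, 40.8% and 45.3% in the wildtype clones, with a fall called in both genotypes and all AID-null clones below all wildtype clones (quasi-binomial model, adjusted p = 0.529). The shore of the paternally expressed growth factor gene Igf2, chr7:149843001-149844000, was at 46.9% and 40.5% at 3 weeks in AID-null and wildtype, against 26.2% and 17.8% in fibroblasts, a difference that was not called.

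The developmental regulator list had 39 shore tiles of 27 genes, of 102 listed genes of which 44 had a tied promoter. Of these, 1 in AID-null and 3 in wildtype were called lower at 3 weeks, and 4 and 2 fell in AID-null and wildtype clones, while 1 in AID-null was called higher at 3 weeks and 1 rose in AID-null and 3 in wildtype clones. Its median difference in clones was 0.215 and 0.585 points in AID-null and wildtype. Shores of Hoxd10 and Hoxd11, homeobox genes that pattern limbs and body axis, were among those called lower, while neither Hoxd13 shore was called. The Hoxd11 shore, chr2:74522001-74523000, was at 48.8% in AID-null and 43.9% in wildtype fibroblasts, and at 26.2% in AID-null and 24.8% in wildtype cells at 3 weeks. It was at 5.67%, 6.25% and 5.67% in the AID-null clones, against 18.1%, 8.76% and 23.8% in the wildtype clones. Its fall was called in AID-null clones (quasi-binomial model, adjusted p = 7.24e-04) and in wildtype clones (quasi-binomial model, adjusted p = 0.0258). A Hoxd10 shore, chr2:74527001-74528000, was at 15.3% and 9.45% at 3 weeks in AID-null and wildtype, against 43.0% and 47.9% in fibroblasts. Hoxd11 RNA was listed at 0 in all 4 libraries. The farther upstream shore of Zic1, a neural zinc finger gene, chr9:91262001-91263000, was at 32.5% in AID-null and 33.6% in wildtype fibroblasts, and at 19.6% in AID-null and 11.8% in wildtype cells at 3 weeks. It was at 6.16%, 7.97% and 7.12% in the AID-null clones, against 17.5%, 25.8% and 20.2% in the wildtype clones. All AID-null clones were below all wildtype clones, and the fall from fibroblasts was called in AID-null (quasi-binomial model, adjusted p = 0.0145) and not in wildtype (quasi-binomial model, adjusted p = 0.151), while the difference between the clones did not pass (6-clone model, adjusted p = 0.230).

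Gain was called at Lhx3, which encodes a LIM homeobox factor of pituitary and motor neurons. Its shore chr2:26061001-26062000 was at 29.5% in AID-null and 23.2% in wildtype fibroblasts, and at 42.9% in AID-null and 43.5% in wildtype cells at 3 weeks. It was at 69.0%, 63.1% and 67.5% in the AID-null clones, against 61.95%, 75.1% and 71.0% in the wildtype clones. All 6 clones were above both 3-week cultures, which were above both fibroblast libraries, and the clones of the genotypes overlapped (quasi-binomial model, adjusted p against fibroblasts 0.00660 in AID-null and 0.00102 in wildtype). Lhx3 RNA was listed at 0 in all 4 libraries. The shore upstream of Emx2, a homeobox gene of forebrain and urogenital tract, was at 19.05% in AID-null and 28.6% in wildtype fibroblasts, and at 32.4% in AID-null and 36.5% in wildtype cells at 3 weeks. It was at 37.4%, 43.4% and 62.4% in the AID-null clones, against 49.0%, 74.7% and 59.8% in the wildtype clones, and its rise was called in wildtype (quasi-binomial model, adjusted p = 0.0373), with adjusted p = 0.0641 in AID-null. The upstream shore of Foxa2, an endoderm factor gene, chr2:147873001-147874000, was at 23.4% in AID-null and 30.7% in wildtype fibroblasts, and at 49.6% in AID-null and 30.8% in wildtype cells at 3 weeks. It was at 29.3%, 72.8% and 76.7% in the AID-null clones, against 48.9%, 85.7% and 72.6% in the wildtype clones. Its rise was called in wildtype clones and, by Fisher's test, in AID-null cells at 3 weeks, and AID-null clone 1 was the lowest of the clones. The difference between the genotypes in these rises was not tested beyond the comparison of clones, which called none.

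Shores of the fibroblast list and of the housekeeping list had 0 calls in each of these comparisons. The fibroblast list had 5 shore tiles of 4 genes, of 37 listed genes of which 10 had a tied promoter, with a median difference in clones of 6.58 and 4.71 points in AID-null and wildtype. The downstream shore of Twist2, a mesenchymal transcription factor gene, was at 9.63%, 14.3% and 18.6% in the AID-null clones, against 18.7%, 15.1% and 23.9% in the wildtype clones, and below 1% in both fibroblast libraries. Col5a1, a fibrillar collagen gene, stood at 2822 FPKM in AID-null and 2620.2 FPKM in wildtype fibroblasts, and at 407 FPKM in AID-null and 99.5 FPKM in wildtype cells at 3 weeks, and the shore holding its start was below 1% in all 10 libraries. The housekeeping list had 6 shore tiles of 4 genes, of 26 listed genes of which 15 had a tied promoter, with a median difference in clones of -0.0376 and -1.77 points. At Eef2, the gene of a translation elongation factor, both downstream shores were above 55% in all 10 libraries, and the upstream shore was below 7%. Eef2 RNA stood at 4010.3 FPKM in AID-null and 4387 FPKM in wildtype fibroblasts, and at 6058 FPKM in AID-null and 4937 FPKM in wildtype cells at 3 weeks.

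**Figure D5:**
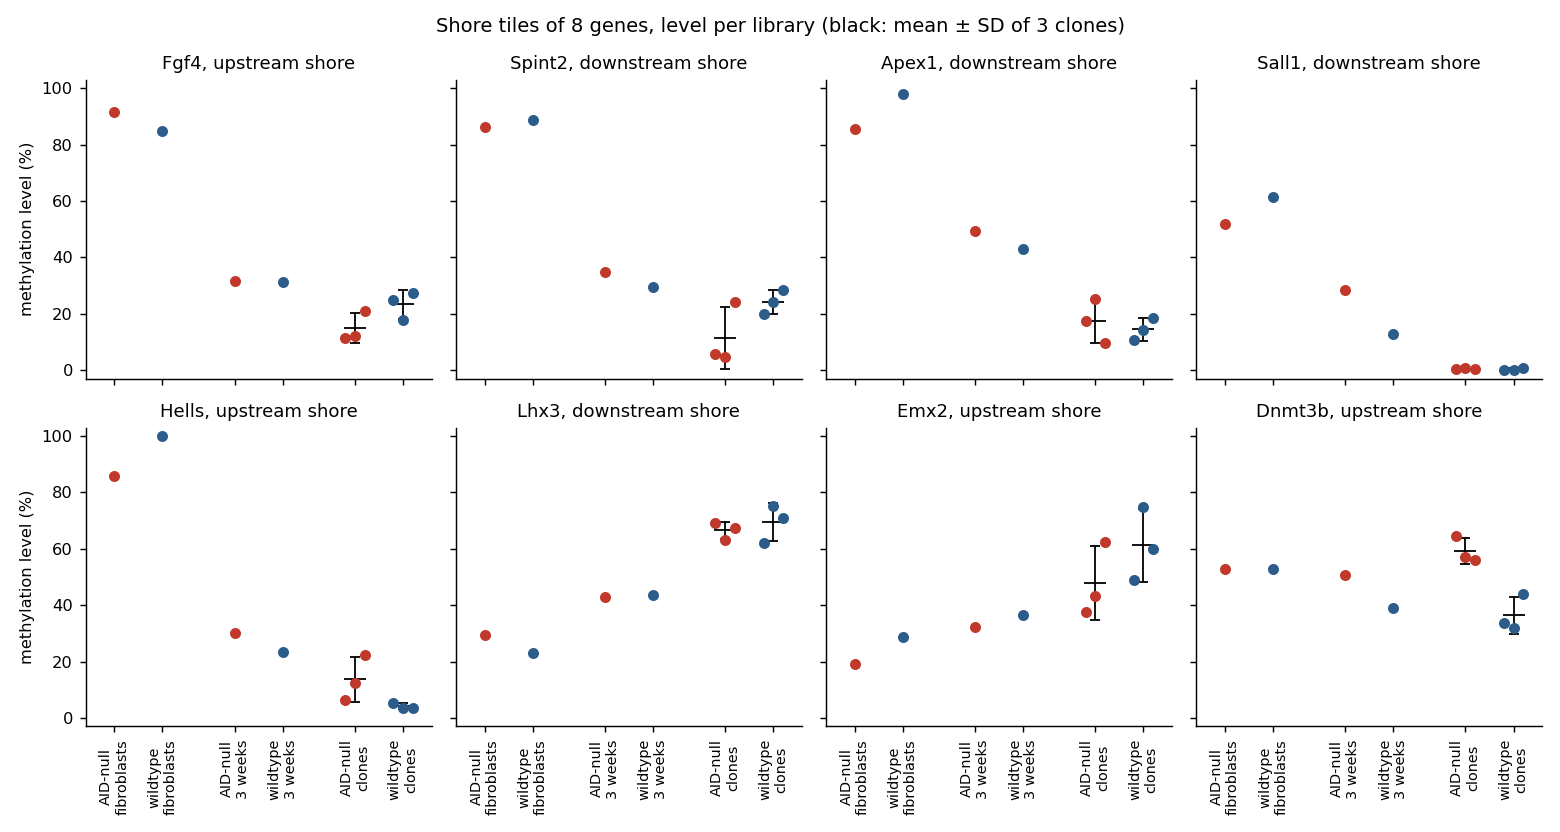
Methylation level (%) of shore tiles of 8 genes in each library, AID-null in red left of wildtype in blue, with fibroblasts, 3 weeks and clones in that order and the mean ± SD of 3 clones in black. Fgf4, Spint2, Apex1, Sall1 and Hells are lower in every reprogrammed library than in fibroblasts, Lhx3 and Emx2 are higher, and at Dnmt3b the AID-null clones (56.0% to 64.7%) lie above the wildtype clones (31.7% to 43.9%).

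Shores also differed among themselves by their dense neighbour. The 5743 shores whose dense neighbour was below 10% averaged 27.1% and 27.8% in AID-null and wildtype fibroblasts. The 380 shores beside a dense tile at 75% or more averaged 76.0% and 77.1%, and in the clones 52.1% ± 7.37 for AID-null and 51.8% ± 1.05 for wildtype (SD, n = 3 each). Shores directly beside a dense tile were measured on both of its sides in 363 pairs, and the sides were only loosely alike. Across pairs, the levels of the sides had a Pearson r of 0.252 in AID-null and 0.227 in wildtype fibroblasts. This describes pairs that share a library, and within the tiles their positions may lie at unlike distances from the edge. In 68 AID-null and 74 wildtype pairs 1 side was below 10% and the other at 50% or more.

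The steepest steps from a dense tile in wildtype fibroblasts were at 4 shores, all tied to genes. Among them is the Hells shore described above. The shore upstream of Trmt10c, which encodes a subunit of mitochondrial RNase P, chr16:56039001-56040000, was at 95.2% in AID-null and 99.86% in wildtype fibroblasts, and at 71.0% in AID-null and 65.3% in wildtype cells at 3 weeks, beside a dense tile at 0.462% and 0.0583% in fibroblasts. It stayed at 70.4% to 77.5% in the AID-null and 71.9% to 76.0% in the wildtype clones, unlike Hells. The others lay downstream of the start of the predicted gene Gm4285 (84.5% and 72.4% at 3 weeks in AID-null and wildtype, against 94.8% and 100% in fibroblasts) and at the divergent genes Slc38a6 and Trmt5 (71.3% and 53.6%, against 92.3% and 98.6%). The 4 widest ranges over the clones included chr7:148249001-148250000 and chr1:78199001-78200000, described above, and the shore downstream of the start of Usp45, a deubiquitinase gene. The Usp45 tile, chr4:21705001-21706000, was at 2.89%, 6.94% and 34.1% in the AID-null clones, against 32.3%, 70.1% and 27.7% in the wildtype clones. Wildtype clone 2 was far above the other wildtype clones there. At chr17:29977001-29978000, with no tied gene, the spread lay within AID-null, at 53.8%, 21.1% and 85.9% in the AID-null clones, against 62.3%, 64.1% and 78.5% in the wildtype clones.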

How the data were processed

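DNA methylation came from reduced representation bisulfite sequencing, which samples fragments cut at a restriction site and so favours CpG-dense DNA. The submitters' processing notes name the build mm9 and the tools methylKit, Bismark, Cufflinks and TopHat, with no versions, trimming or filters. Per the file headers, the deposited methylation files list for each cytosine and strand its coverage as a read count and the percent of reads that were C (methylated) or T. Total coverage was 222945430 to 296572452 per library, the lowest coverage listed was 10, and the percents summed to under 99.9 in 1.63% to 5.97% of positions. RNA was deposited as FPKM, scaled by the authors to gene length and library size, so its read depth is unknown.

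Reads of each state were taken as coverage times percent, rounded where a test needed whole reads, and summed per tile. Clones were compared by a quasi-binomial model per tile with dispersion moderated by limma 3.58.1 in R 4.3.3 (trend on the information, floor of 1), the remaining contrasts by the same model over all 10 libraries, and single libraries by Fisher's exact test in scipy 1.17.1. P-values were Benjamini-Hochberg adjusted over all 108523 tiles, and the models were tested on simulated data, where a larger share of the calls of the 10-library model than of the 6-clone model was false. Promoter ties were checked by gene order, in which 99.91% of neighbouring pairs agreed, and 9 were left out. The side of a shore is that of its centre relative to the start. Named tiles lay outside chromosome 18, held at least 5 positions and 100 reads in every library, and were the 4 most extreme by change at 3 weeks in both genotypes, by genotype difference at 3 weeks, by difference between clones that do not overlap (each in both directions), by step from the dense tile in wildtype fibroblasts, and by range over clones. Listed genes could be named where a tied promoter lay in a shore tile or the dense tile beside it. The 95% Wilson interval of a named tile's level reached at most 8.43 points to each side in any library, and such intervals cover counting error only. Shores, lists and rankings were chosen with earlier results of these data known. Alternatives were the read weighting, coverage, the limits of the tile classes, the threshold, the model, the block and each clone left out.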

Additional observations from a re-analysis of the deposited data

Results flagged for a closer look

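Among the named shores and the shores of listed genes, 6 differed from fibroblasts in opposite directions in AID-null and wildtype, by a mean of at least 5 points in each. In the clones, every AID-null clone lay on one side of its fibroblasts and every wildtype clone on the other at 3 shores. The clone mean of the upstream shore of Dnmt3b differed from fibroblasts by 6.60 points in AID-null and -16.3 points in wildtype, and neither passed (quasi-binomial model, adjusted p = 0.683 and 0.198). That of the shore upstream of Wnt1, a signalling ligand gene, differed by 24.0 points in AID-null and -7.27 points in wildtype, from 35.7% and 55.8% in fibroblasts, and neither passed (quasi-binomial model, adjusted p = 0.0950 and 0.633). At the tile chr19:10260001-10261000 the difference was 8.18 points in AID-null, which did not pass, and -28.0 points in wildtype, which was called (quasi-binomial model, adjusted p = 0.368 and 0.00388). At 3 weeks, with 1 library each, the nearer upstream shore of the homeobox gene Dlx1, chr2:71366001-71367000, differed from fibroblasts by 7.65 points in AID-null and -6.98 points in wildtype. The outermost downstream shore of the imprinted gene Zrsr1, chr11:22874001-22875000, differed by -8.74 points in AID-null and 6.66 points in wildtype, and the tile chr17:29977001-29978000 by 5.67 and -13.3 points. None of these 3-week differences reached the 25 points of a call. The change at 3 weeks was not called different between the genotypes at any of these tiles by the 10-library model, and for the clones the difference between the changes was not tested.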

How the results depend on the processing

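No result turned its direction under an alternative run, except that the mean AID-null minus wildtype difference of the clones ranged from -4.47 to 0.226 points when 1 clone was left out. Leaving out positions of very high coverage changed none of 30 results by over 1.5 times. Leaving out chromosome 1 or the trend in the dispersion, or using limma on log2 ratios, was counted for only 3 results each and changed none by over 1.5 times. The limma run covered only AID-null against wildtype clones, where 0 shores were called in the main run. It therefore says nothing about the counts of the other comparisons. With a threshold of 10 points in place of 25, the shares of shores called were 29.8% lower and 7.61% higher for AID-null at 3 weeks, 38.7% and 7.00% for wildtype at 3 weeks, 1.37% and 21.3% for AID-null against wildtype at 3 weeks, 7.44% and 4.47% for AID-null against wildtype fibroblasts, 6.90% higher for wildtype clones against fibroblasts, and 0.453% lower for AID-null clones against their culture. With the 10-library model in place of Fisher's test they were 2.97% lower and 0.106% higher for AID-null at 3 weeks, 12.6% and 0.408% for wildtype at 3 weeks, and 0 for AID-null above wildtype at 3 weeks and for both directions in fibroblasts. With 5 to 10 positions the shares were 0.743% higher for AID-null at 3 weeks, 0.794% higher for AID-null against wildtype at 3 weeks, 0.205% lower and 0.154% higher in fibroblasts, and 0.0256% higher for AID-null clones against their culture. With only tiles next to the dense tile, the first 2 were 0.690% and 0.836%. With a coverage of 20 or more, 0.389% were lower and 0.220% higher in fibroblasts, and 0.440% lower and 0 higher in AID-null clones against their culture, where the mean of positions and dense tiles of 30 or more positions also gave 0 higher. Leaving out 1 clone gave 0% to 1.48% lower and 0% to 0.0906% higher in AID-null against wildtype clones, 0.0906% to 4.06% lower and 0% to 0.0755% higher in AID-null clones against their culture, and 0% to 0.0151% lower and 0% to 0.0151% higher in wildtype clones against theirs. The highest share lower was without AID-null clone 3 in the first pair of comparisons. Clone numbers did not pair the clones: deviations of same-numbered clones correlated at 0.0168, -0.0179 and 0.0529 over all tiles. With the clone number as a replicate block, 0 shores were called lower and 0 higher, and the mean difference was -1.82 points. The depth of shores was a median of 664 to 871 reads per tile in a library, and precision was further limited by 1 library per group of fibroblasts and of 3-week cells. The cause of these differences between settings was not tested.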

Other observations

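Shores with fewer measured positions were more methylated. Tiles with 3 positions averaged 39.9% and 40.7% in AID-null and wildtype fibroblasts, and tiles with 10 positions 19.03% and 19.5%. In AID-null clones they kept 75.3% and 61.9% of the fibroblast level, against 76.8% and 72.0% in wildtype clones. Shores with a dense tile on both sides averaged 16.0% ± 4.03 in AID-null and 19.7% ± 0.737 in wildtype clones (SD, n = 3 each).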
